A study of Homo sapiens with 10 samples.

Results

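The effect of switching on α-synuclein in differentiated SH-SY5Y cells was described from 6 of the 10 samples of the series, chosen by their treatment labels. They are 3 BDNF+Dox libraries and 3 BDNF libraries among 9 chromatin immunoprecipitation (ChIP) libraries, and each was called against the same Input library. SH-SY5Y cells derive from a human neuroblastoma and become neuron-like under retinoic acid. Both groups were cultured with 300 µg/ml Zeocin and received 10 µM retinoic acid with 3% serum for 6 days, and then 4 days without serum in which the neurotrophin BDNF was present at 50 ng/ml. The BDNF+Dox cells also had 1 µg/ml doxycycline for 3 days, which turned on α-synuclein through a Tet-on system. The labels name 1 cell line for both groups and give no group with doxycycline but without α-synuclein, so an effect of the drug and one of the protein cannot be told apart. They do not say whether replicates were separate cultures, so each p-value here reflects spread among these libraries alone, which may be technical. No RNA or protein was measured, so neither the induction of α-synuclein nor the neuronal state of the cells could be checked.

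The antibody recognised H4R3me2s, histone H4 with symmetric dimethylation of arginine 3. This mark is laid down chiefly by the methyltransferase PRMT5 and is mostly described as repressive, and the series title names PRMT5 together with the BAF chromatin remodelling complex. NRCAM encodes an L1-family adhesion molecule of growing axons and nodes of Ranvier.

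The data are peak lists. Each library has its own list of narrow peaks over Input, and 2 further lists, 1 narrow and 1 broad, were called by the authors from the merged BDNF+Dox reads over the merged BDNF reads. Here they are called the pooled lists. They carry no replicate error, were made from the same reads as the library lists, and hold only places with more signal in BDNF+Dox. All folds and q-values are the authors' own, from MACS2. After duplicate removal the libraries held 18928589, 18062749 and 18027832 reads in BDNF+Dox replicates 1 to 3, against 17583363, 17164402 and 18229482 in BDNF replicates 1 to 3. The Input held 17074000 reads.

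Transcript starts were a rare place for these peaks. Of 34961 promoter windows (250 bases before to 50 after a RefSeq transcript start, 300 in all), the pooled narrow list touched 18, of which 8 belong to protein-coding genes, and the pooled broad list touched 54. The libraries over Input touched 16, 14 and 4 windows in BDNF+Dox, against 9, 8 and 5 in BDNF. The 3 windows below are the protein-coding ones with the smallest q in the pooled narrow list, and a further window shows the annotated start nearest to the recurrent NRCAM peak described further on. Sequences are from RefSeq on GRCh38.p14, 5′ to 3′ along the gene. Capitals mark bases inside the pooled narrow peak. CHN2 lies at chr7:29483566-29483865 on the plus strand, DTNA at chr18:34755726-34756025 (plus), ART3 at chr4:76053866-76054165 (plus) and NRCAM at chr7:108328477-108328776 (minus).
CHN2: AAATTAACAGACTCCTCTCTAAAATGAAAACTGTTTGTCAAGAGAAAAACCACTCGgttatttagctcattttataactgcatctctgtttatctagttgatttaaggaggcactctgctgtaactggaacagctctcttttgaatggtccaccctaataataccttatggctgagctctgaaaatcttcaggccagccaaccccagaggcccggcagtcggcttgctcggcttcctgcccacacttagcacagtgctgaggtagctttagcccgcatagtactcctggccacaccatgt
DTNA: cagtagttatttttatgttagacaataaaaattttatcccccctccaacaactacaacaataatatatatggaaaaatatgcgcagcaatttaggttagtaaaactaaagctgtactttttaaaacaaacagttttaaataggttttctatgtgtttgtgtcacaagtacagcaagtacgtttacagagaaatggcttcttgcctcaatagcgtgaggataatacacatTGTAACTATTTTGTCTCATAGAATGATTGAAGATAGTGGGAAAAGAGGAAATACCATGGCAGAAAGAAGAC
ART3: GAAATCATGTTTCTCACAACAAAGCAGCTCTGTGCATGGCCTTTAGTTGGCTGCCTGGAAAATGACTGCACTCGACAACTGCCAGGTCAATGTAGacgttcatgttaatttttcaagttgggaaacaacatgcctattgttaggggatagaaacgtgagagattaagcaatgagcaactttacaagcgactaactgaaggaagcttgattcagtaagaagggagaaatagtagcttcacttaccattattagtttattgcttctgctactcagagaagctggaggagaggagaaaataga
NRCAM: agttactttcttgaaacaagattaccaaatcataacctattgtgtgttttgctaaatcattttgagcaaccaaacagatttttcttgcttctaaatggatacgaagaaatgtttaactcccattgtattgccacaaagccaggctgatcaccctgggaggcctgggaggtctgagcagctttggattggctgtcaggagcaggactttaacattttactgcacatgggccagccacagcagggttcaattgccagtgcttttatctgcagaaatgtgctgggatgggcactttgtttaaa

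CHN2, which encodes a Rac-inactivating chimaerin, has 6 annotated starts, and the window is that of an internal one. Its peak covered 56 bases at the upstream edge and was the only promoter-window peak with q of 0.05 or less, at a fold of 3.91 and a q of 0.0477 in the authors' deposited table. No library of either group had a peak there. DTNA encodes the membrane scaffold α-dystrobrevin, and its peak covered 71 bases across the start, with a fold of 3.43 and a q of 0.397 in the authors' deposited table. ART3, an ADP-ribosyltransferase family member, had 95 bases covered, with a fold of 3.46 and a q of 0.486 in the authors' deposited table. DTNA and ART3 each had an overlapping peak in 1 BDNF+Dox library and in no BDNF library.

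The 18 windows had a median GC content of 38.0%, against 58.7% over all 34961 windows, and a median of 3 CpG sites against 14. The letters TATAAA, searched on both strands, were in 22.2% of the 18 windows and in 11.5% of all windows. The letters CCAAT, likewise searched, were in 38.9% of the 18 and in 34.6% of all. The CHN2 window holds TATAAA and the NRCAM window holds CCAAT, while DTNA and ART3 hold neither. Windows touched by library peaks were also AT-rich, with a median GC of 40.2% for BDNF+Dox libraries and 41.0% for BDNF libraries.

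BDNF+Dox libraries had more peaks on average than BDNF libraries, but the groups overlapped. The libraries held 10864, 6942 and 6330 peaks in BDNF+Dox, against 6171, 4536 and 6888 in BDNF. BDNF+Dox replicate 1 stood highest and BDNF replicate 2 lowest, and the other BDNF+Dox libraries lay within or next to the BDNF range. Means were 8045 ± 2460 in BDNF+Dox and 5865 ± 1205 in BDNF (SD, n = 3 each), with a ratio of geometric means of 1.35 (exact two-sided permutation test, p = 0.2, adjusted p = 0.4 over 6 measures). With 3 libraries against 3 the smallest p this test can give is 0.1. Peaks covered 2286, 1386 and 1155 kb in BDNF+Dox, against 1294, 825 and 1293 kb in BDNF (ratio 1.38, exact permutation p = 0.4, adjusted p = 0.6). Very few peaks were individually strong: 16, 31 and 26 had a q of 0.05 or less in BDNF+Dox, against 32, 16 and 19 in BDNF.

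**Figure D1:**
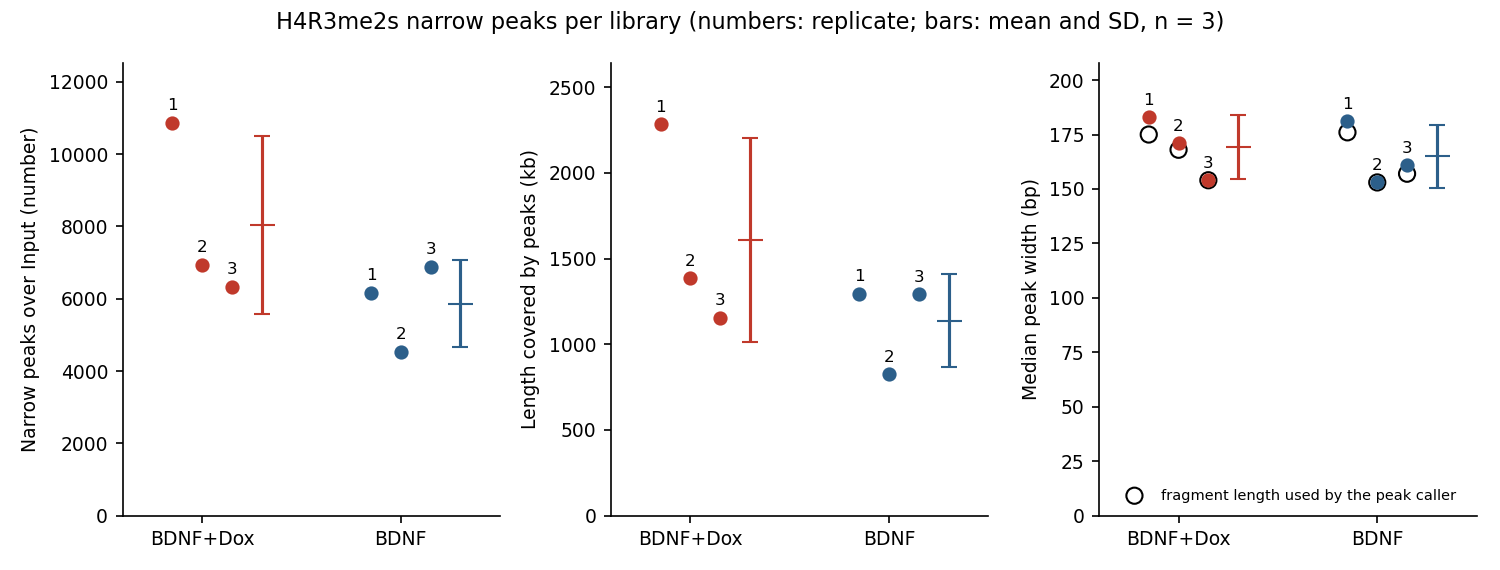
Narrow peaks over Input, the length they cover in kb and the median peak width in bp for the 3 BDNF+Dox libraries (left) and the 3 BDNF libraries (right), with the mean and SD of each group and open circles for the fragment length set by the peak caller. BDNF+Dox replicate 1 has 10864 peaks and BDNF replicate 2 has 4536, the other 4 libraries lie close together, and the median widths follow the fragment lengths.

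Median peak width differed between the groups by less than its spread and went with the fragment length. Median widths were 183, 171 and 154 bp in BDNF+Dox, against 181, 153 and 161 bp in BDNF (means 169 ± 14.6 and 165 ± 14.4 bp, exact permutation p = 0.7). The fragment lengths that MACS2 used, which are the smallest width it reports, were 175, 168 and 154 bp in BDNF+Dox, against 176, 153 and 157 bp in BDNF. Between 44.7% and 50.3% of peaks in BDNF+Dox libraries and between 47.2% and 50.2% in BDNF libraries had exactly that smallest width. The widest peak of any library was 573 bp, in BDNF+Dox replicate 1, next to 571 bp in BDNF replicate 1.

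The pooled lists were wider in the broad mode but not strong. The narrow list held 9850 peaks on the chromosomes 1 to 22 and X, with a median width of 189.5 bp against a smallest width of 163 bp, and 25.6% were at that smallest width. Of these 9850 placed peaks, 81 had a q of 0.05 or less (0.822%), and their median width was 202 bp. The broad list held 25226 regions with a median width of 305 bp (quartiles 211 and 406 bp), and 5 had a q of 0.05 or less (0.0198%). Regions over 1 kb numbered 36. All 9850 narrow peaks lay in broad regions, and 39.0% of broad regions held a narrow peak. Broad regions with a narrow peak were the narrower ones, at a median of 198 bp, against 364 bp for those without.

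**Figure D2:**
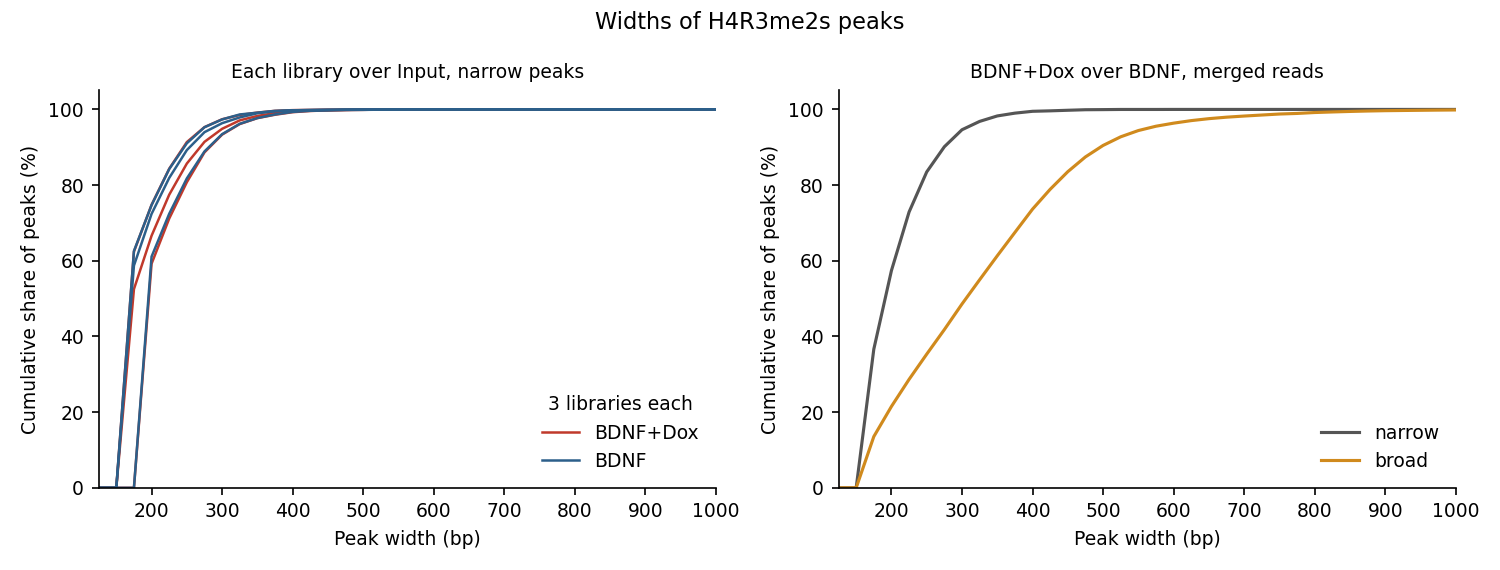
Cumulative share of peaks (%) by peak width (bp) for the 3 BDNF+Dox and 3 BDNF libraries over Input (left) and for the pooled narrow and broad lists of BDNF+Dox over BDNF (right). Library curves of both groups run together, with medians between 153 and 183 bp, while the pooled broad regions reach a median of 305 bp against 189.5 bp for the pooled narrow peaks.

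The widest broad regions in nuclear protein-coding genes were shallow. In the authors' deposited table the widest, 1541 bp in ACBD6 (an acyl-CoA-binding protein), had a q of 1. RGS5, a regulator of G-protein signalling, followed with 1511 bp, a fold of 2.26 and a q of 1 in the authors' deposited table. The other 8 of the 10 genes with the widest regions were DISP1 (Hedgehog ligand release), CNTNAP2 (a neurexin-family axonal protein), RYR2 (a calcium release channel), CCDC83, AGPS (ether lipid synthesis), LYST (lysosome traffic), CNTN6 (a contactin) and SLC25A24 (a mitochondrial carrier). Their widths ran between 1151 and 1278 bp, and every q was above 0.98 in the authors' deposited table. Of these 10 regions, the one in CCDC83 was met by 1 BDNF+Dox library, the one in CNTNAP2 by 1 BDNF library and the others by none.

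No broad region in or near a nuclear protein-coding gene reached a q of 0.05 (0 of 19974 genes, 0.0%). The smallest value among these genes in the authors' deposited table was a q of 0.0555 in RNF115, a ubiquitin ligase, at a fold of 3.43. The next genes by q in the authors' deposited table were NME7 (0.129), ABL2 (0.194), NRCAM (0.26), CADPS2 (0.332), GALNT17 (0.363), ROBO2 (0.39), PHACTR3 (0.401), CNTNAP2 (0.408) and DEPDC1B (0.41). Regions by this ranking were short, between 163 and 500 bp, and 8 of the 10 genes also had a narrow peak with q of 0.05 or less, which leaves out PHACTR3 and DEPDC1B.

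Peaks lay mostly inside genes or far from them, in both groups. Gene ends, meaning 2 kb on either side of the first or last base of a protein-coding gene, held 3.02%, 2.78% and 3.11% of peaks in BDNF+Dox, against 3.01%, 2.89% and 2.55% in BDNF (exact permutation p = 0.5, adjusted p = 0.6). These windows make up 5.10% of the 2.7e+09 bp that MACS2 took as the genome. Gene interiors held 39.1%, 40.6% and 42.2% of peaks in BDNF+Dox, against 35.6%, 38.7% and 39.1% in BDNF. Means were 40.6 ± 1.55% and 37.8 ± 1.93% (SD, n = 3 each, exact permutation p = 0.1, adjusted p = 0.4), and interiors make up 43.7% of that genome. The groups did not overlap here, but the lowest BDNF+Dox library and the highest BDNF library were equal to the printed decimal.

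Within 2 kb of an annotated transcript start, which is 3.98% of the genome length, lay 2.24%, 2.30% and 2.33% of peaks in BDNF+Dox, against 1.93%, 2.44% and 1.93% in BDNF. In the pooled narrow list 2.65% of peaks lay near a start, 3.52% at gene ends and 43.6% in gene interiors, each above every library. Outside annotated genes lay 38.9%, below the 40.1% to 46.6% of the libraries. Among the 81 pooled narrow peaks with q of 0.05 or less, 4 were at gene ends, 20 in interiors, 17 in noncoding genes alone and 40 outside genes.

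Replicate libraries shared few peaks. Pairs of BDNF+Dox libraries had between 34 and 68 peaks in common by at least 1 bp, pairs of BDNF libraries between 20 and 41, and pairs across the groups between 23 and 60. As a share of covered length (Jaccard index) this was 0.144% to 0.259% within BDNF+Dox, 0.129% to 0.176% within BDNF and 0.133% to 0.242% between groups. Merging the peaks of the 6 libraries gave 40892 regions. A single BDNF+Dox library held 23386 of them and a single BDNF library 16947. Regions with a peak in 2 BDNF+Dox libraries and no BDNF library numbered 136 (0.333%), and those with a peak in 2 BDNF libraries and no BDNF+Dox library 76 (0.186%). BDNF+Dox libraries held more peaks on average, and these counts were not recomputed at an equal peak number per library. A peak in 1 library of each group occurred in 322 regions. No region had a peak in all 6 libraries. The nearest to it, with 3 BDNF+Dox and 2 BDNF libraries, was chr22:10732407-10733038, named after its values were seen. It lies outside annotated genes, and the nearest protein-coding gene, OR11H1, is 4795 kb away.

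Peaks in all 3 BDNF+Dox libraries and no BDNF library marked 2 regions (0.00489%), and 0 regions had the reverse (0.0%). They were singled out after their values were seen. One lies inside NRCAM, at chr7:108322116-108322426, and the other outside genes at chr11:124178589-124178936, 4.41 kb from the olfactory receptor gene OR10D3. In NRCAM the peaks had folds over Input of 3.01, 3.92 and 3.40 and −log10 p-values of 3.36, 5.00 and 3.72 in BDNF+Dox replicates 1 to 3, all with a q of 1. The nearest peaks of BDNF replicates 1 to 3 lay 127, 87.9 and 240 kb away, the last of them outside NRCAM and its flanks. Near OR10D3 the folds were 3.69, 3.07 and 3.29 and the −log10 p-values 4.37, 2.87 and 3.16, again with a q of 1. When each library was held to its 4536 strongest peaks, the size of the smallest list, neither region was left.

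NRCAM was the only nuclear protein-coding gene whose pooled peak with q of 0.05 or less was met by all 3 BDNF+Dox libraries. The gene spans chr7:108147649-108456720 on the minus strand. In the pooled narrow list its main peak, chr7:108322126-108322514, was 389 bp wide with a fold of 4.21 and a q of 0.000243 in the authors' deposited table. Only 5 placed narrow peaks were stronger by p and 62 were wider, of 9850. The broad list gave the same span a fold of 2.75 and a q of 0.26 in the authors' deposited table. The summit, at position 108322265, lies 6.26 kb downstream of the internal transcript start whose window is printed above, and 134 kb downstream of the first start. NRCAM held 6, 2 and 3 peaks in BDNF+Dox libraries, against 1, 2 and 0 in BDNF libraries (means 3.67 ± 2.08 and 1.00 ± 1.00, SD, n = 3 each, exact permutation p = 0.2, adjusted p = 0.4). With each library held to its 4536 strongest peaks the means were 2.0 and 0.667, a difference of 1.33 (exact permutation p = 0.4). The shared site was the only one in the gene that 2 or more libraries had in common. NRCAM was chosen for testing with earlier results of these data known, and its counts include that site. Its p-values make no allowance for this choice. BDNF+Dox replicate 1 held the most peaks in NRCAM and the most peaks of any library, and its part in the difference is given with that library left out in the closing section.

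**Figure D3:**
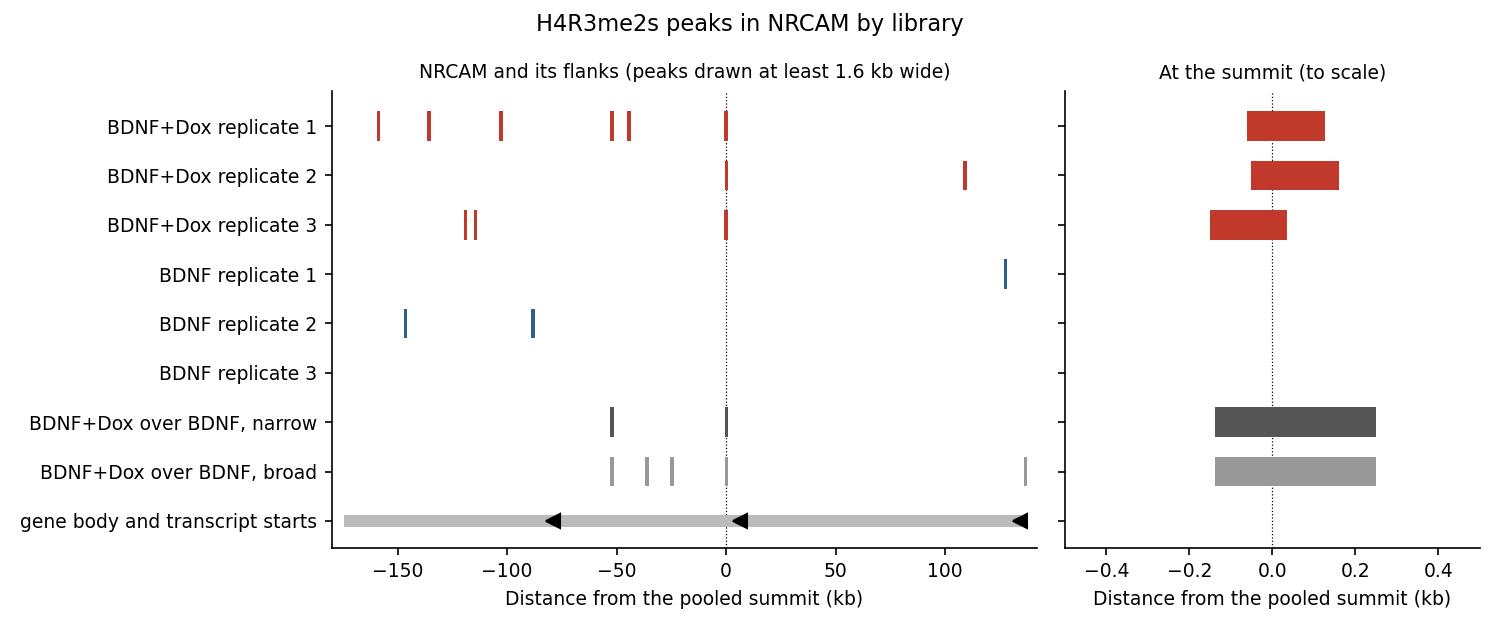
H4R3me2s peaks in NRCAM and 2 kb around it, by distance in kb from the summit of the pooled narrow peak, for the BDNF+Dox libraries, the BDNF libraries and the 2 pooled lists, with transcript starts as arrowheads pointing in the direction of transcription (left), and 0.5 kb around the summit to scale (right). All 3 BDNF+Dox libraries have a peak at the summit and the BDNF libraries have none within 87.9 kb.

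The other genes named for their part in this pathway showed no such site. L1CAM, the founding member of the NRCAM family, PRMT5 itself and SMARCA4, an ATPase of the BAF complex, had 0 peaks in every library and in both pooled lists.

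A pooled narrow peak lay in or within 2 kb of 2945 of 19974 nuclear protein-coding genes (14.7%), one with −log10 p of 5 or more in 540 (2.7%) and one with q of 0.05 or less in 24 genes (0.12%). These 24 peaks had folds between 3.46 and 5.31 and widths between 163 and 500 bp in the authors' deposited table. In 14 of the genes no library had a peak at the pooled peak, in 8 it was 1 BDNF+Dox library, in MAPT 2 and in NRCAM 3. No BDNF library had one at any of them. That says nothing about these genes, because the BDNF reads were the background of the list. A BDNF library had a peak at only 1 of all 9850 pooled narrow peaks. Summed over the whole length of the 24 genes there were 144 peaks in BDNF+Dox libraries and 101 in BDNF libraries. In 5 of the genes there was no library peak at all.

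Of the 24 genes, 15 were over 100 kb long. MAPT encodes tau, the microtubule-binding protein of axons, and its peak at chr17:45969740-45969944 had a fold of 3.86 and a q of 0.0347 in the authors' deposited table. It was met by BDNF+Dox replicates 1 and 2 and no BDNF library. ROBO2, a receptor for the guidance cue Slit, had a fold of 4.02 and a q of 0.0112 in the authors' deposited table, with 1 BDNF+Dox library in support. Over its 1743 kb ROBO2 held 10, 6 and 9 peaks in BDNF+Dox libraries, against 3, 0 and 4 in BDNF libraries, which do not overlap. Peaks per Mb over all protein-coding genes did not overlap either, at 2.17 to 3.43 in BDNF+Dox and 1.42 to 2.14 in BDNF. The share of all genes whose counts separate in this way was not computed. SEMA6D, a transmembrane semaphorin, had a fold of 3.93 and a q of 0.0455 in the authors' deposited table with no library support. CNTNAP2, which clusters potassium channels along axons, had a fold of 3.91 and a q of 0.0477 in the authors' deposited table. Over its 2304 kb it held 16, 8 and 8 peaks in BDNF+Dox, against 12, 7 and 10 in BDNF, which overlap. CADPS2, a priming factor for dense-core vesicle release, had a fold of 3.46 and a q of 0.0419 in the authors' deposited table. Its library counts were 5, 0 and 4 in BDNF+Dox, against 3, 1 and 7 in BDNF. CSMD1, a large complement-regulating membrane protein, had a fold of 3.86 and a q of 0.0212 in the authors' deposited table, with 10, 3 and 4 peaks in BDNF+Dox, against 9, 9 and 6 in BDNF.

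RNF115 had the smallest q of any nuclear protein-coding gene, 7.2e-06 at a fold of 5.31 in the authors' deposited table. NME7, a nucleoside diphosphate kinase family member at the microtubule-organising γ-tubulin ring, followed NRCAM with a fold of 4.13 and a q of 0.000367 in the authors' deposited table. GALNT17, a sugar transferase of the GalNAc family, had the widest of the 24 peaks, 500 bp, with a fold of 4.42 and a q of 0.00125 in the authors' deposited table. RNF115, NME7 and GALNT17 each had 1 supporting BDNF+Dox library. GOLT1A (Golgi transport), at a q of 0.00489 in the authors' deposited table, had no peak of any library in the gene. ABL2 (a cytoskeletal tyrosine kinase), TRANK1 and ZSWIM5 had q-values of 0.0212, 0.0212 and 0.0262 in the authors' deposited table. LOC105371216, MSH6 (mismatch repair), PRKACB (a catalytic subunit of protein kinase A) and ANGEL2 had q-values of 0.0299, 0.033, 0.0347 and 0.0418 in the authors' deposited table, and only the PRKACB peak had a library in support. SND1 is a Tudor-domain protein that binds symmetrically dimethylated arginine, and its peak, at a fold of 3.56 and a q of 0.0175 in the authors' deposited table, had no library in support. SND1 held 1, 1 and 1 peaks in BDNF+Dox libraries, against 1, 0 and 1 in BDNF libraries.

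At gene ends, 4 of the 24 genes held their peak. UPP1 (uridine phosphorylase) had its peak upstream, at -1.52 kb from its nearest start, with a fold of 4.18 and a q of 0.0108 in the authors' deposited table. BLVRA (biliverdin reductase) had it 1.16 kb after the start, with a fold of 3.86 and a q of 0.0347 in the authors' deposited table. UPP1 and BLVRA each had 1 supporting BDNF+Dox library. H3-3B, which encodes the replication-independent histone H3.3, had a peak centred at -0.746 kb from its start, with a fold of 3.93 and a q of 0.0455 in the authors' deposited table. The peak of MAD2L1, a spindle checkpoint gene, lay at its 3′ end, 10.1 kb after the start, with a q of 0.0262 in the authors' deposited table. H3-3B and MAD2L1 had no peak of any library. The next 6 gene-end peaks by q, all above 0.05 in the authors' deposited table, were in GAP43 (a growth cone protein), NGFR (the p75 neurotrophin receptor, which binds BDNF), SLC26A2 (a sulfate transporter), ZNF584, ZNF66 and IL7R (the interleukin 7 receptor). GAP43 and NGFR both had a fold of 3.92 and a q of 0.0757 in the authors' deposited table, and neither had a supporting library. GAP43 held its peak at the 3′ end, 96.3 kb after its start.

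MPLKIP, a gene linked to the hair disorder trichothiodystrophy, is named after its values were seen, because it held the widest pooled narrow peak. That peak, chr7:40132606-40133201, was 596 bp wide, with a fold of 3.50 and a q of 0.117 in the authors' deposited table. It also lies in or within 2 kb of the neighbouring gene SUGCT. BDNF+Dox replicates 1 and 3 had peaks in it, of 175 and 154 bp at its opposite ends, and replicate 2 had a peak outside it, at chr7:40130742-40130909. No BDNF library had a peak in or within 2 kb of MPLKIP.

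Genes with a peak somewhere in all 3 BDNF+Dox libraries and in no BDNF library numbered 80 of 19974 (0.401%), against 13 (0.0651%) for the reverse. When each library was held to its 4536 strongest peaks the counts were 25 and 20, so the larger count on the BDNF+Dox side went with the larger number of peaks called there. The 80 genes were long, with a median of 149 kb against 24.2 kb for all genes, as were the 161 genes (0.806%) with a peak in all 6 libraries (median 744 kb). At gene ends alone the counts were 0 (0.0%) and 1 (0.00501%), the 1 being the olfactory receptor gene OR13G1.

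By number of peaks the leading BDNF+Dox genes were PTPRG, a receptor tyrosine phosphatase (3, 1 and 5 peaks in BDNF+Dox replicates 1 to 3), CDH8, a type II cadherin (1, 5 and 2), VPS13B, a lipid transfer protein (5, 2 and 1) and MACF1, an actin and microtubule crosslinker (1, 2 and 4). Each had 0 peaks in the BDNF libraries. Genes with 6 such peaks included DNAH6 (a dynein heavy chain), FAM227B, FRAS1 (extracellular matrix), RGS5 and SCLT1 (centrioles). RGS5 also had 6 narrow peaks and 9 broad regions of the pooled lists in its 179 kb. On the BDNF side MAP2K4, a kinase of the JNK pathway, held 3, 1 and 2 peaks in BDNF replicates 1 to 3 and 0 in every BDNF+Dox library. The others named by the same rule were AKAP6 (a kinase anchor), MREG, OTUD7B (a deubiquitinase), ZCCHC7, DNAH5 (a dynein), ENPP2 (autotaxin), EPS8 and LGR5 (an R-spondin receptor), and OR13G1.

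Few pooled peaks coincided with a peak of a single library. At least 1 BDNF+Dox library had a peak at 1766 of the 9850 narrow peaks (17.9%): 1704 had 1, 60 had 2 and 2 had all 3. A BDNF library had one at 1 of the 9850. Support was more frequent for stronger peaks, at 14.2% for −log10 p between 2 and 3, 26.3% between 5 and 6, and 48.0% (12 of 25) from 8 upwards. For the 81 peaks with q of 0.05 or less it was 39.5%. Of the broad regions, 11.8% had a BDNF+Dox library and 18 of 25226 a BDNF library. Seen from the libraries, 6.90%, 8.14% and 8.30% of the peaks in BDNF+Dox lay in a pooled narrow peak, against 0.0%, 0.0% and 0.0146% in BDNF. Such support is not independent evidence, because the pooled lists come from the same reads and the BDNF reads served as their background.

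Longer genes held a peak more often. A pooled narrow peak was found in 1.57% of genes under 10 kb, in 47.3% of genes between 100 and 500 kb and in 91.1% of those over 500 kb. For this reason the gene lists are given as peaks per Mb of gene span with 2 kb on each side. This density still rose with gene length. In the pooled narrow list it was 1.83 for genes under 10 kb and 4.36 for those over 500 kb. A list of long or short genes is therefore not matched for length by the value over all genes. Over all protein-coding genes this density was 2.62 ± 0.70 in BDNF+Dox libraries and 1.77 ± 0.36 in BDNF libraries (SD, n = 3 each), and 3.52 in the pooled narrow list.

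The axon and cytoskeleton list had 13 of 23 members with a pooled narrow peak (against 14.7% of all genes, but with a median length of 108 kb) at 6.45 per Mb. Its library density ran between 2.69 and 4.03 per Mb in BDNF+Dox, against 0.27 to 1.88 in BDNF, without overlap, as over all genes, where the ranges were 2.17 to 3.43 and 1.42 to 2.14. MAP2, a dendritic microtubule protein, had 1 peak in each BDNF+Dox library and 0 in each BDNF library. ANK3, which organises the axon initial segment, had 4, 3 and 4 in BDNF+Dox, against 1, 0 and 1 in BDNF. KIF5C, a neuronal kinesin, had 2, 2 and 0 in BDNF+Dox, against 0, 0 and 0 in BDNF. ANK2 held 0, 1 and 1 in BDNF+Dox, against 3, 0 and 3 in BDNF. MAP2, ANK3, KIF5C and ANK2 were chosen after their values were seen.

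In the L1 and immunoglobulin adhesion list, 16 of 20 members had a pooled narrow peak, against 14.7% of all genes, at 4.91 per Mb. Median gene length was 362 kb in this list, against 24.2 kb over all genes. It was 286 kb for axon guidance, 352 kb for contactins and partners and 126 kb for synaptic adhesion. Of the 50 pooled narrow peaks in the L1 list, 14 were in SDK1, a gene on chromosome 7. NRCAM was the only member with q of 0.05 or less. The second smallest q was 0.09 in NCAM2, a neural cell adhesion molecule, in the authors' deposited table. NCAM2 held 4, 3 and 4 peaks in BDNF+Dox libraries, against 0, 1 and 1 in BDNF libraries. These do not overlap, as with the density over all genes. The list's library densities overlapped, at 2.46 to 3.93 in BDNF+Dox and 1.28 to 2.65 in BDNF. Axon guidance genes had 19 of 33 members with a peak, at 5.03 per Mb, led by ROBO2 and SEMA6D. Their library densities of 3.15 to 4.41 in BDNF+Dox and 1.1 to 3.07 in BDNF did not overlap, as over all genes. Contactins and their partners had 7 of 11, at 5.74 per Mb, led by CNTNAP2 and CNTN5. The list's library densities overlapped (2.10 to 5.88 in BDNF+Dox, 2.66 to 4.76 in BDNF). Of its 41 pooled narrow peaks, 18 were in CNTNAP2. That gene lies on chromosome 7, which held 6.17 pooled narrow peaks per Mb of its annotated span. CNTN5, a contactin, held 7, 1 and 2 peaks in BDNF+Dox, against 3, 7 and 12 in BDNF, which overlap. Synaptic adhesion genes had 9 of 22, at 3.93 per Mb, led by LRRTM4 and NLGN1. LRRTM4, a postsynaptic adhesion protein, held 6, 4 and 2 peaks in BDNF+Dox, against 1, 1 and 7 in BDNF, which overlap. NLGN1, a neuroligin, held 3, 5 and 4 in BDNF+Dox, against 2, 3 and 3 in BDNF, and the groups meet at 3.

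Presynaptic release genes had 11 of 23 members with a pooled narrow peak, at 3.31 per Mb, led by CADPS2 and RIMS2 (active zone scaffold, q of 0.0745 in the authors' deposited table). Over all genes 14.7% had such a peak, at a median gene length of 24.2 kb. Median length was 186 kb for presynaptic release, 406 kb for neurotransmitter receptors and 29.6 kb for the synuclein and Parkinson disease list. RIMS2 held 8, 4 and 9 peaks in BDNF+Dox libraries, against 2, 2 and 2 in BDNF libraries. These do not overlap, as with the density over all genes. Neurotransmitter receptors had 14 of 24, at 3.39 per Mb, led by the glutamate receptor GRM8, with 9, 2 and 1 peaks in BDNF+Dox, against 1, 4 and 3 in BDNF, which overlap. The synuclein and Parkinson disease list had 5 of 22, at 2.84 per Mb, below the 3.52 of all genes, led by MAPT and DNAJC6 (auxilin, clathrin uncoating). The DNAJC6 peak had a q of 0.0877 in the authors' deposited table, and the gene held 1, 0 and 0 peaks in BDNF+Dox, against 0, 1 and 0 in BDNF.

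Genes that write or read the mark, and those of the BAF complex, were described next. Over all genes the share with a pooled narrow peak was 14.7%. Median gene length in the lists of this paragraph ran between 0.412 kb (histone genes) and 75.3 kb (mesenchymal markers). Histone arginine methylation genes had 4 of 18 members with a pooled narrow peak, at 6.15 per Mb, and 6 of their 9 peaks were in SND1, followed by PRMT9 with a q of 0.716 in the authors' deposited table. BAF complex genes had 8 of 29, at 3.59 per Mb, led by SMARCA2 (a BAF ATPase, q of 0.221 in the authors' deposited table) and ARID2. Histone genes had 1 of 23, H3-3B. BDNF and immediate early response genes had 3 of 28 at 1.26 per Mb, led by NGFR and SORCS3, and retinoic acid response genes 3 of 22 at 2.51 per Mb, led by RARB and MEIS1. Both densities were below that of all genes. Stress and mitochondrial translation genes had 4 of 22 at 10.5 per Mb, a density that rests on 6 peaks, of which 3 were in the cystine transporter gene SLC7A11 and 1 each in ASNS (asparagine synthetase), GFM1 and MTIF2. Noradrenergic neuroblastoma markers had 3 of 22, at 8.06 per Mb, 6 of the 10 peaks being in ALK, with SLC18A2 the smallest q. Mesenchymal markers had 7 of 20 (4.83 per Mb, led by NOTCH2 and RUNX2), and markers of other cell types 1 of 25, VWF.

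**Figure D4:**
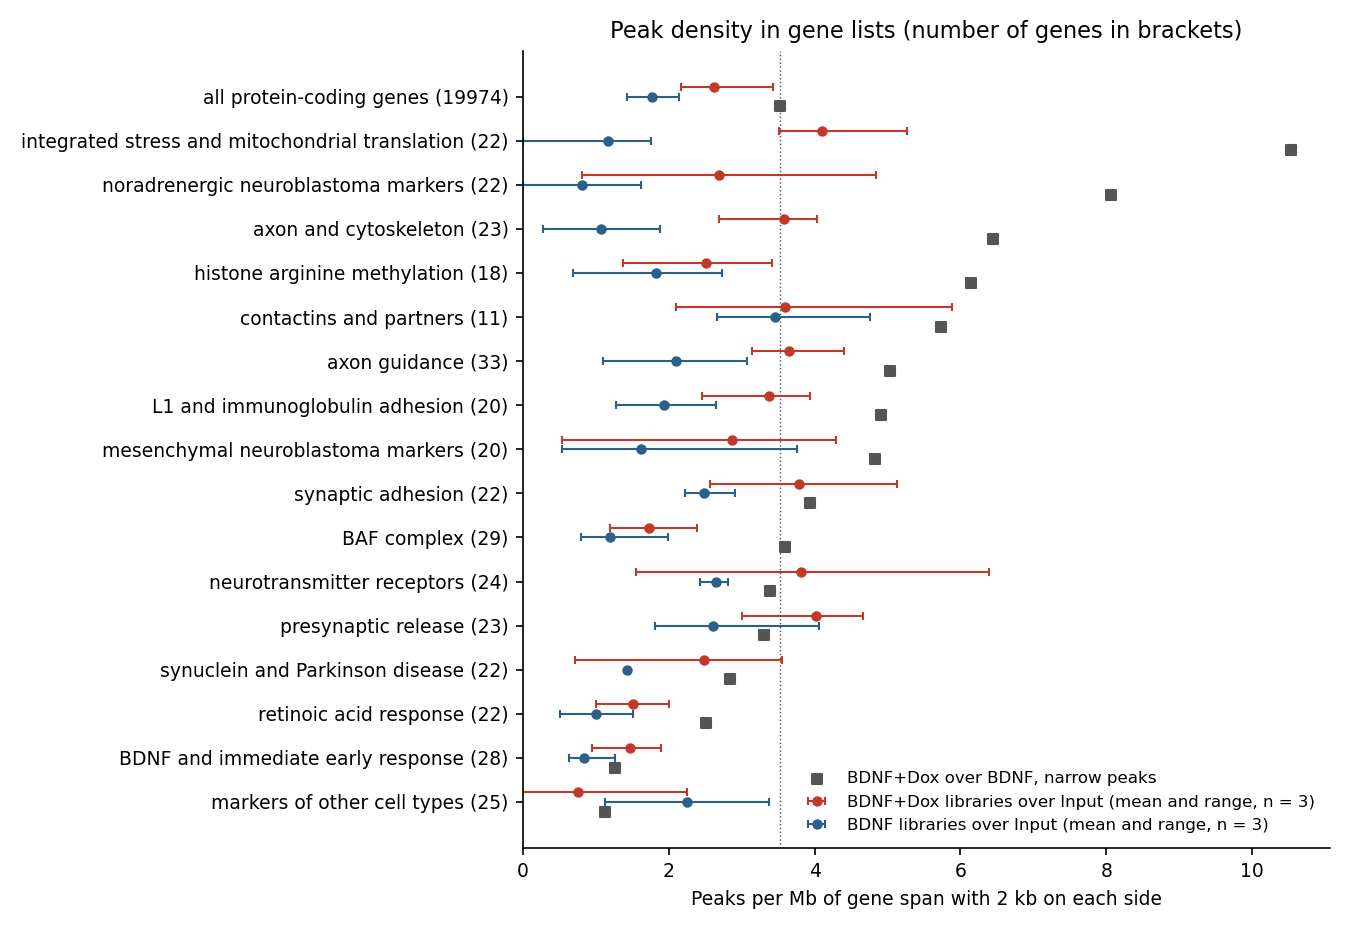
Peaks per Mb of gene span with 2 kb on each side, for all protein-coding genes and the gene lists other than histone genes, with the mean and range of the 3 BDNF+Dox libraries, the same for the 3 BDNF libraries, and the pooled narrow list as squares. Over all genes the means are 2.62 and 1.77, the pooled value of 3.52 is drawn as a dotted line, and the ranges of the 2 groups do not overlap over all genes but do in all drawn lists except axon guidance, axon and cytoskeleton, and stress and mitochondrial translation.

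Chromosome 7 held far more of the strong pooled peaks than its length. It makes up 5.26% of the annotated span and 4.70% of protein-coding genes, and held 9.97% of pooled narrow peaks and 19 of the 81 with q of 0.05 or less (23.5%). Chromosome 1 came next with 10 of the 81. Of the 24 genes, 8 lie on chromosome 7 (NRCAM, GALNT17, UPP1, SND1, BLVRA, CADPS2, CHN2 and CNTNAP2) and 8 on chromosome 1. In the libraries over Input chromosome 7 also held more than its length, and alike in both groups, with 8.48 ± 1.30% of peaks in BDNF+Dox and 8.80 ± 1.56% in BDNF (SD, n = 3 each). SH-SY5Y is known to carry an extra copy of chromosome 7. Copy number was not measured here and its part in these counts was not tested.

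**Figure D5:**
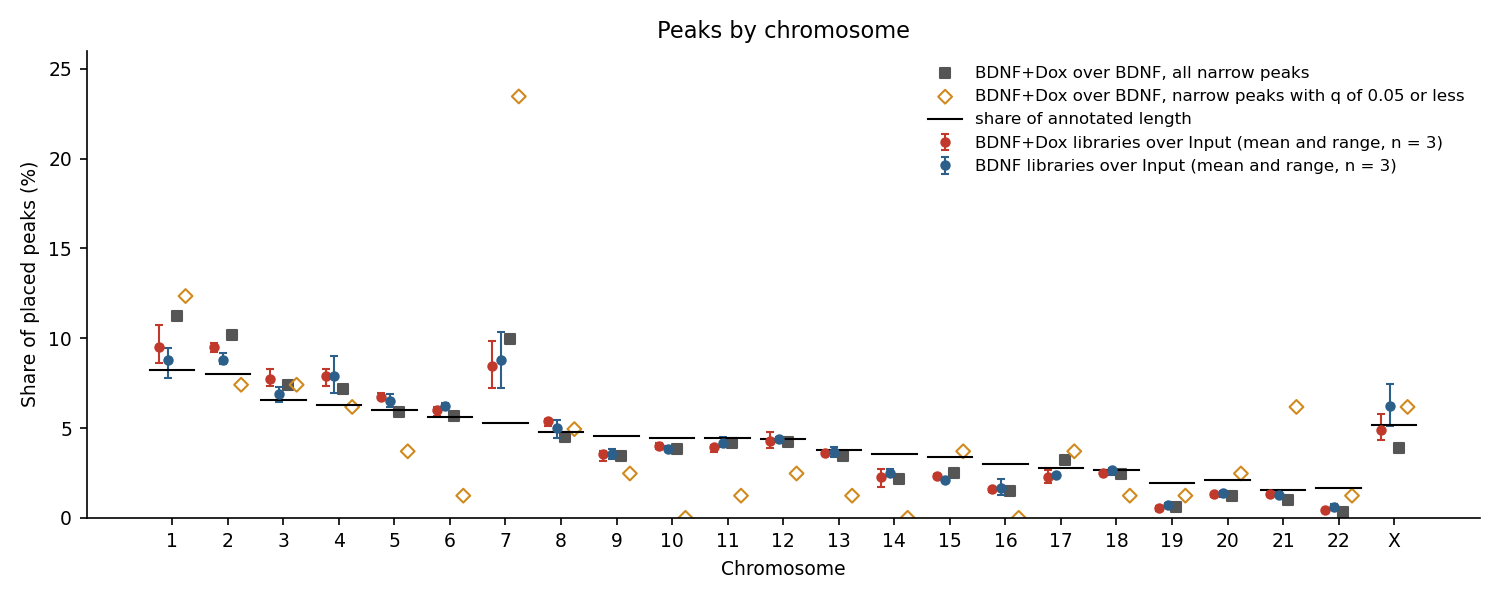
Share of placed peaks (%) by chromosome, for the BDNF+Dox libraries and the BDNF libraries over Input (mean and range, n = 3 each), all pooled narrow peaks, and those with q of 0.05 or less, with lines at each chromosome's share of annotated length. Chromosome 7 has 23.5% of the strong pooled peaks, 9.97% of all pooled narrow peaks, and 8.48% and 8.80% of the BDNF+Dox and BDNF library peaks, against 5.26% of the length.

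The smallest q-values of the pooled narrow list were in mitochondrial DNA. Mitochondrial DNA, which is not wound on histones, held 11 narrow peaks and 5 broad regions, with narrow folds between 1.38 and 2.56 and a smallest q of 2.0e-21, in the respiratory chain gene COX1, in the authors' deposited table. They covered 11356 bp in the narrow list. None of the 6 library lists over Input holds a mitochondrial peak. On the nuclear chromosomes the 4 strongest peaks lay outside protein-coding genes, on chromosome 15 (2 peaks), 20 and 21, with folds between 5.21 and 6.00 in the authors' deposited table and 2, 2, 0 and 1 supporting BDNF+Dox libraries. The nearest protein-coding gene was between 18.5 and 1318 kb away. How these peaks bear on the gene results was not tested.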

How the data were processed

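H4R3me2s ChIP-seq was analysed in 3 BDNF+Dox and 3 BDNF libraries with 1 shared Input, and the Naive libraries were not used. Per the labels' protocols, chromatin was fixed with 1% formaldehyde for 10 minutes. Per the submitters' processing notes, cutadapt 1.1, Trimmomatic 0.32, Bowtie and MACS2 2.2.7.1 were used with GRCh38. Per the file headers, the authors kept 1 read per position, used a p threshold of 0.01 with local backgrounds of 1000 and 10000 bp, and took a broad cutoff of 0.01. The deposited fragment pileup (signal height) is scaled to the smaller dataset, the deposited fold enrichment is pileup over local background, and the deposited −log10 p and −log10 q values are MACS2's own, per the file headers. The headers state that q was not calculated, yet the q columns hold values, which are used as deposited.

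Peaks were assigned to RefSeq genes on GRCh38.p14 (gene with 2 kb on each side, minimum overlap 1 bp) with Python 3.11.15, pandas 2.3.3, numpy 2.4.6 and scipy 1.17.1. That annotation gave no exons, so interior means anywhere in the gene over 2 kb from its ends. The 6 library measures were compared by exact two-sided permutation over all 20 assignments, with Benjamini-Hochberg adjustment, and the script was tested on simulated data. Everything else is a description. Named genes are those with a pooled narrow peak of q at 0.05 or less, the 10 widest and 10 smallest-q broad regions, the 10 smallest-q gene-end peaks, up to 10 genes called in all libraries of 1 group alone, and up to 2 genes per list. Members and gene lists were chosen with earlier results of these data known. Some genes that these rules name are not reported here.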

Additional observations from a re-analysis of the deposited data

How the results depend on the processing

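No library measure passed 0.05 under any setting tried, in a design where exact permutation cannot go below p = 0.1. With the replicate number as a block (replicate block, smallest p 0.25) the exact permutation p was 0.5 for the peak number ratio of 1.35, 0.5 for the covered length ratio of 1.38, 0.75 for the median width difference of 4.33 bp, 0.75 for the gene-end difference of 0.150 percentage points, 0.25 for the gene-interior difference of 2.86 percentage points and 0.5 for the NRCAM difference of 2.67 peaks. In peak share per 1 Mb, same-numbered libraries correlated at 0.0598, -0.0291 and 0.0463. Differently numbered libraries of the groups correlated between -0.0744 and 0.0191. Libraries shared so few peaks that these values cannot decide whether the numbers pair the samples. The difference in median width reversed without BDNF+Dox replicate 1 (-2.5 bp) and without BDNF replicate 2 (-1.67 bp), within a leave-one-out range of -2.5 to 12.3 bp. Leaving out each library gave a peak number ratio as low as 1.15, without BDNF+Dox replicate 1, and an NRCAM difference between 1.5 peaks, also without BDNF+Dox replicate 1, and 3.5 peaks. With an equal peak number per library the NRCAM difference was 1.33 peaks (exact permutation p = 0.4) and the covered length ratio 1.01. Leaving out each library gave gene-end differences between 0.0186 (without BDNF replicate 3) and 0.248 (without BDNF replicate 1) and gene-interior differences between 1.75 (without BDNF replicate 1) and 3.63 percentage points. Without BDNF+Dox replicate 3 the gene-end difference was 0.0799, and without BDNF+Dox replicate 2 it was 0.245.

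Regions called in every BDNF+Dox library but no BDNF library numbered 1 at −log10 p of 3 or more, 0 with an equal peak number per library, and 2 to 62 when 1 library was left out, and the reverse 0 to 33. Genes of that kind numbered 25 with equal peak number and 102 to 263 with 1 library left out. The reverse numbered 8 at −log10 p of 3 or more, 20 with equal peak number and 20 to 78 with 1 left out. Leaving out a library asks for fewer libraries in agreement, so higher counts follow by construction. Pooled narrow peaks numbered 81 at q of 0.05 or less and 1164 at −log10 p of 5 or more, and broad regions 5 and 23. Library support was 17.0% when the overlap had to reach at least 0.5 of either peak and 39.5% at q of 0.05 or less. Members of all lists with a pooled narrow peak numbered 127 without a threshold and 40 at −log10 p of 5 or more. Over all 19974 protein-coding genes the numbers were 2945 (14.7%) and 540 (2.7%). The lists include many long genes, which held a peak more often, and were not matched for length. At this depth between 89.9% and 94.0% of the peaks in each library had a q of 1, so single library peaks are weak evidence of signal. Width over fragment length and 2 kb around transcript starts were added after seeing the data and gave differences of 0.00323 (a ratio) and 0.190 percentage points.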
